A study of Mus musculus with 6 samples.

Results

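Heat shock chaperones are the proteins that keep other proteins folded. The 10 genes described here are Hspa1a, Hspa1b, Hspa8, Hsph1, Dnajb1, Bag3, Hsp90aa1, Hsp90ab1, Hspb1 and Hsf1. They were chosen by name, as the transcript clusters whose gene symbol is exactly one of these, with the brightest cluster by mean over the 6 arrays taken for each gene. Probes that the array groups under 1 gene or transcript form such a cluster. Of the 10 genes, 7 had a cluster under their symbol alone, out of 30142 genes with such a cluster. All 7 passed the filter on dim clusters. Hspa1b was measured only on a cluster that it shares with Hspa1a, and Hsp90ab1 and Hsf1 were not analysed here. Another 5 clusters carried a member's symbol beside other symbols and are given below as such.

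The series compared sorted bone marrow hematopoietic stem cells (HSCs), the cells that renew the blood, from wild-type mice and from CDK19-/- mice of 6 to 8 weeks. CDK19 is a cyclin-dependent kinase that associates with Mediator, the complex that carries signals from transcription factors to the polymerase making messenger RNA. Each genotype had 3 arrays labelled as biological replicates, with no other allele or treatment named. The labels do not give the sorting markers beyond lineage depletion, how the allele was made, or how many animals each array holds, so p-values measure the spread between these samples.

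As background, heat shock factor 1 (HSF1) is the transcription factor that switches on heat shock genes when misfolded proteins draw chaperones away from it. It binds heat shock elements, inverted repeats of a short GAA unit, and blood stem cells are known to depend on tight control of protein quality. The HSP70 proteins bind unfolded stretches of protein in a cycle driven by ATP, J-domain proteins load them, and HSP110 and BAG proteins release what was bound. HSP90 proteins finish the folding of kinases and receptors, and small heat shock proteins hold unfolded proteins in a soluble state.

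The 250 bases before the annotated start of 5 genes are shown because they are the regions in which a shared heat shock element could be looked for, and because those of Hspa1a and Hspa1b show how alike this pair of genes is. They are from RefSeq (mouse build GRCm38.p6, 5′ to 3′ on the strand of the gene). Capitals mark matches to GAANNTTC or TTCNNGAA, a facing pair of GAA units, each of which reads the same on both strands. The windows are chr7:128523333-128523582 (plus strand) for Bag3, chr5:149636337-149636586 (minus strand) for Hsph1, chr17:34972157-34972406 (minus strand) for Hspa1a, chr17:34959239-34959488 (minus strand) for Hspa1b and chr5:135887669-135887918 (plus strand) for Hspb1.
Bag3: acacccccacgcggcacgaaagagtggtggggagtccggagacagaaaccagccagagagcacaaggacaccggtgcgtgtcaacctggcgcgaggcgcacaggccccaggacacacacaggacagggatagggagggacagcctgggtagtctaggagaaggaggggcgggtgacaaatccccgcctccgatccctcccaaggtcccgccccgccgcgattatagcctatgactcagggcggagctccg
Hsph1: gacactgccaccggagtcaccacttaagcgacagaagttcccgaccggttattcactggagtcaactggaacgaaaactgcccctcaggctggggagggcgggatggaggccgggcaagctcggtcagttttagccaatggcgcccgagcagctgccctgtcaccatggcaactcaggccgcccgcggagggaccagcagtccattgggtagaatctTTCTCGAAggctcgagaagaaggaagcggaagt
Hspa1a: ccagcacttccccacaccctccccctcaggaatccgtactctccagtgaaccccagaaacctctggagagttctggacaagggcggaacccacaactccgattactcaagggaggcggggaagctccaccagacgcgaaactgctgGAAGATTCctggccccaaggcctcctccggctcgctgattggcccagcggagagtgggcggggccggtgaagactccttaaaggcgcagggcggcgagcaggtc
Hspa1b: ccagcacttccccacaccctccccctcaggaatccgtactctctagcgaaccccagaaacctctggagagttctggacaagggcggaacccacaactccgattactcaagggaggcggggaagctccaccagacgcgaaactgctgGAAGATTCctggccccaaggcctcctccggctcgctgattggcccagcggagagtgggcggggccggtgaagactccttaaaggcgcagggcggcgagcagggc
Hspb1: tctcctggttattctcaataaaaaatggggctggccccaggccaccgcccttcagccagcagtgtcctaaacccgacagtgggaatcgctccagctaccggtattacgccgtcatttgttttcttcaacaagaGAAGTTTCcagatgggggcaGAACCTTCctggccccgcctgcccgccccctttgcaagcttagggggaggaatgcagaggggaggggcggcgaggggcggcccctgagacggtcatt

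Of the 10 genes, 6 matched the promoter table, with 8 windows. The Hspb1 window held 2 matches, whose first bases lie 117 and 97 bases before the start. The windows of Hsph1, Hspa1a and Hspa1b held 1 each, and those of Bag3 and Dnajb1 held 0. A facing pair occurred in 12.8% of the 32851 windows of all genes. The element of 3 units in a row (GAANNTTC followed by NNGAA, or the reverse complement of this, each of which contains both shorter motifs) was in 0 of the 8 members' windows and in 0.466% of all windows. TATAAA was in none of the 8 windows, a count of 0, against 12.4% of all windows, searched on both strands. GGGCGG was in all 8, against 32.7%, and CCAAT in 5, against 33.8%, both searched on both strands. The CCAAT windows were those of Hsph1, Hspa1a and Hspa1b and 1 of Dnajb1. These counts are not of independent promoters, since Hsph1 and Dnajb1 each had more than 1 window. Those of Hsph1 overlap, and 1 of Dnajb1 lies wholly downstream of the other. The windows of Hspa1a and Hspa1b differed at 3 of 250 bases (98.8% identity). A match is a run of letters and not a measured binding site.

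Cdk19 checked the labels: it fell from 12.44 ± 0.06 (SD, n = 3) to 11.47 ± 0.05 (SD, n = 3) on the log2 scale, a change of -0.97 (SE 0.05; limma, p adjusted after Benjamini-Hochberg, adjusted p = 3.2e-04). The array medians lay between 4.40 and 4.48. Of 10 HSC and progenitor markers, 7 had a cluster of their own and all 7 were above the dim limit, with wild-type means from 5.78 (Slamf1) to 15.97 (Cd34). Markers of myeloid cells were above it too: all 7 granulocyte and all 6 monocyte and macrophage markers could be tested. Their wild-type means varied widely, with Mpo at 16.93, Lyz2 at 11.37 and Elane at 10.53. Camp at 5.11, Ly6g at 4.93, Ltf at 4.55 and Adgre1 at 4.21 lay much nearer the dim limit of 4.09. Of 6 T cell markers, 3 were too dim to test. Over all 39543 clusters tested, 2.96% were called higher and 4.84% lower in the knockout.

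BAG3 releases clients from HSP70 and directs misfolded proteins to autophagy. Its gene was the 1 member called, and it rose about 1.52-fold. The wild-type arrays 1, 2 and 3 read 6.11, 6.32 and 6.23 for Bag3, and the knockout arrays 1, 2 and 3 read 6.92, 6.65 and 6.89. All 3 knockout arrays were above all 3 wild-type arrays, and the gap between the groups was wider than the spread within either. The mean went from 6.22 ± 0.11 (SD, n = 3) to 6.82 ± 0.15 (SD, n = 3). The knockout thus stood 0.60 higher on the log2 scale (SE 0.10, 95% interval 0.37 to 0.83; limma adjusted p = 0.015). A rise of at least this size was seen in 1.46% of all tested clusters. The call was lost without wild-type array 1 (limma adjusted p = 0.057) or 3 (0.064) and without knockout array 1 (0.052) or 3 (0.054), and it held without wild-type array 2 (0.043) or knockout array 2 (0.017). The change without 1 array ran from 0.545 to 0.685.

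**Figure D1:**
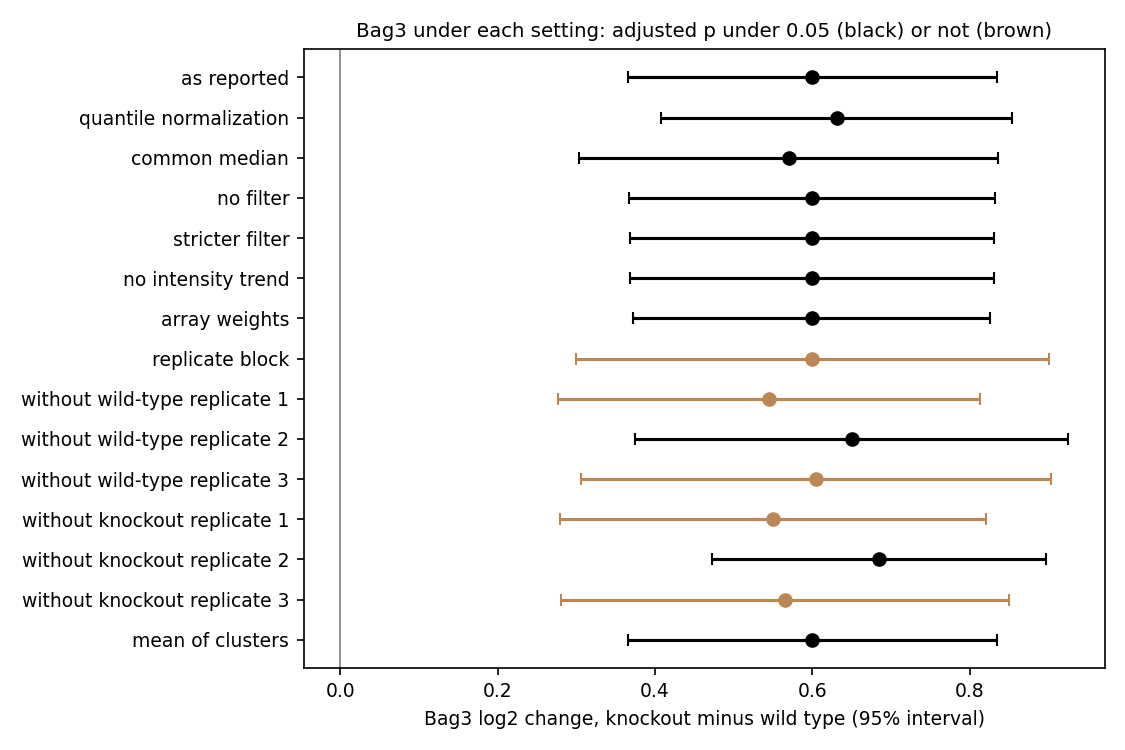
Bag3 log2 change (x axis, knockout minus wild type, with 95% intervals) under each setting (y axis), in black where the limma adjusted p was under 0.05 and in brown where it was not. Estimates lie between 0.545 and 0.685 in every setting shown, while the call comes and goes.

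The HSP70 genes among the members gave no call, though for Hspa8, described below, the values could not show a change. Hspa1a encodes the stress-inducible HSP70, the chaperone that rises strongly on heat shock. The wild-type arrays 1 to 3 read 6.21, 6.38 and 6.48 for Hspa1a and the knockout arrays 6.30, 6.30 and 6.62. The groups overlapped, with 1 knockout array above all wild-type arrays. The log2 change was 0.05 (SE 0.12, 95% interval -0.23 to 0.33; limma adjusted p = 0.87). The interval corresponds to between 0.853 and 1.26 times the wild-type level. Its sign turned to -0.02 without wild-type array 1 and to -0.06 without knockout array 3.

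The cluster that carries both symbols, Hspa1a and Hspa1b, read 6.61, 6.69 and 6.84 in wild type and 7.10, 6.87 and 6.85 in the knockout. Here all 3 knockout arrays lay above the wild-type arrays, by as little as 0.01 where they came closest. The log2 change was 0.23 (SE 0.10, 95% interval -0.01 to 0.46; limma adjusted p = 0.25). These are near-identical copies of 1 gene on chromosome 17, so signal on either cluster cannot be assigned to 1 copy with certainty.

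HSPA8 is the constitutive HSP70, made in nearly all cells whether stressed or not. The deposited values cannot show whether its transcript changed. Its brightest cluster read 19.93 on 5 arrays and 19.92 on knockout array 3, where 19.93 is the highest value in the table. All 4 clusters named Hspa8 alone gave the same 6 values, and their names place them on chromosomes 1, 1, 6 and 14, while the gene lies on chromosome 9. The cluster at the gene's own chromosome, which also carries the small nucleolar RNA symbols Snord14c, Snord14d and Snord14e, read 15.95 on 5 arrays and 15.94 on knockout array 3. The cluster shared with the predicted gene Gm15459 read 19.17, 19.16 and 19.17 in wild type and 19.17, 19.17 and 19.16 in the knockout. A range of at most 0.01 over the 6 arrays occurred in 0.237% of the 65956 clusters, and all 6 clusters that carry the symbol Hspa8 were among them. The fitted change of -0.003 (SE 0.02) is therefore given without a reading.

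**Figure D2:**
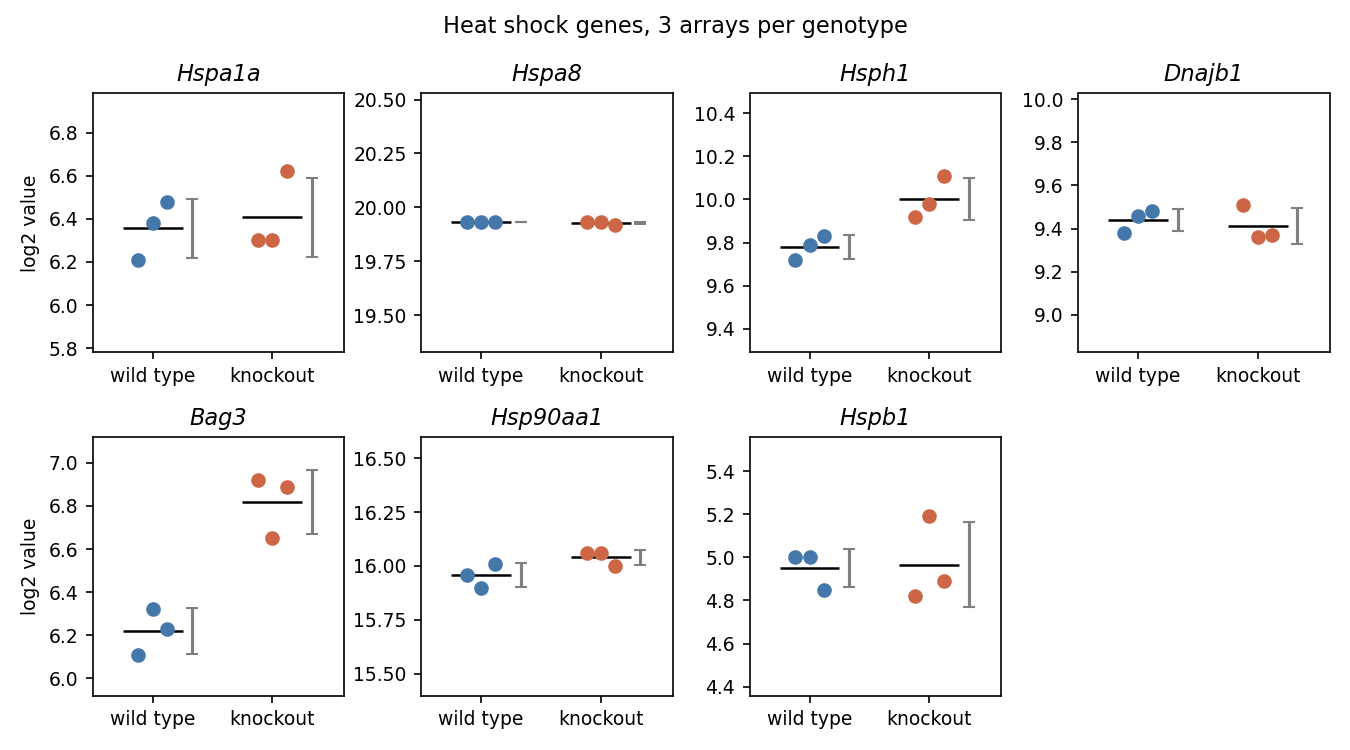
Log2 values (y axis, each panel with the same span around its own middle) of the 7 measured genes on the 3 wild-type and 3 knockout arrays (points), with the mean (black line) and SD (grey bar). Bag3 and Hsph1 are the panels in which every knockout point lies above every wild-type point, and the Hspa8 points lie at 19.92 or 19.93.

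Hsph1 encodes HSP110, a large relative of HSP70 that frees it of nucleotide and pulls proteins out of aggregates. The wild-type arrays 1 to 3 read 9.72, 9.79 and 9.83 and the knockout arrays 9.92, 9.98 and 10.11. The groups did not overlap, though the gap was small. The log2 change of 0.22 (SE 0.07, 95% interval 0.06 to 0.39) did not pass (limma adjusted p = 0.12).

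DNAJB1, also known as HSP40, is the J-domain partner that loads HSP70 and helps it restrain HSF1. Dnajb1 read 9.38, 9.46 and 9.48 in wild type and 9.51, 9.36 and 9.37 in the knockout. The knockout held both the highest and the lowest of the 6 values. The log2 change was -0.03 (SE 0.07, 95% interval -0.18 to 0.13; limma adjusted p = 0.87).

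Hsp90aa1 encodes the inducible cytosolic HSP90. Its cluster on chromosome 12, where the gene lies, read 15.96, 15.90 and 16.01 in wild type and 16.06, 16.06 and 16 in the knockout. The groups overlapped, since knockout array 3 lay just under wild-type array 3. The log2 change was 0.08 (SE 0.04, 95% interval -0.02 to 0.18; limma adjusted p = 0.32). Another 2 clusters carry its symbol beside that of a predicted gene, and their names place them on chromosomes 11 (with Gm12346) and 3 (with Gm5844). The one shared with Gm12346 read 16.44, 16.50 and 16.56 in wild type and 16.67, 16.64 and 16.69 in the knockout, groups that did not overlap. Its log2 change was 0.17 (SE 0.04; limma adjusted p = 0.059), and it passed after quantile normalization (0.026) and with a stricter filter on dim clusters (0.040). The one shared with Gm5844 had a log2 change of 0.19 (SE 0.07; limma adjusted p = 0.17), with wild-type values of 15.42, 15.38 and 15.56 and knockout values of 15.66, 15.54 and 15.72. All 3 clusters thus had positive changes, and none passed as deposited. Since they share a symbol, they may not be separate measures.

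Hspb1 encodes the small heat shock protein known in mouse as HSP25. It was dim, at 5.0, 5.0 and 4.85 in wild type and 4.82, 5.19 and 4.89 in the knockout, where the dim limit was 4.09. The groups overlapped fully, and the knockout spread was the wider, with an SD of 0.20 against 0.09. The log2 change was 0.02 (SE 0.11, 95% interval -0.25 to 0.28; limma adjusted p = 0.96), with no settled sign.

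**Figure D3:**
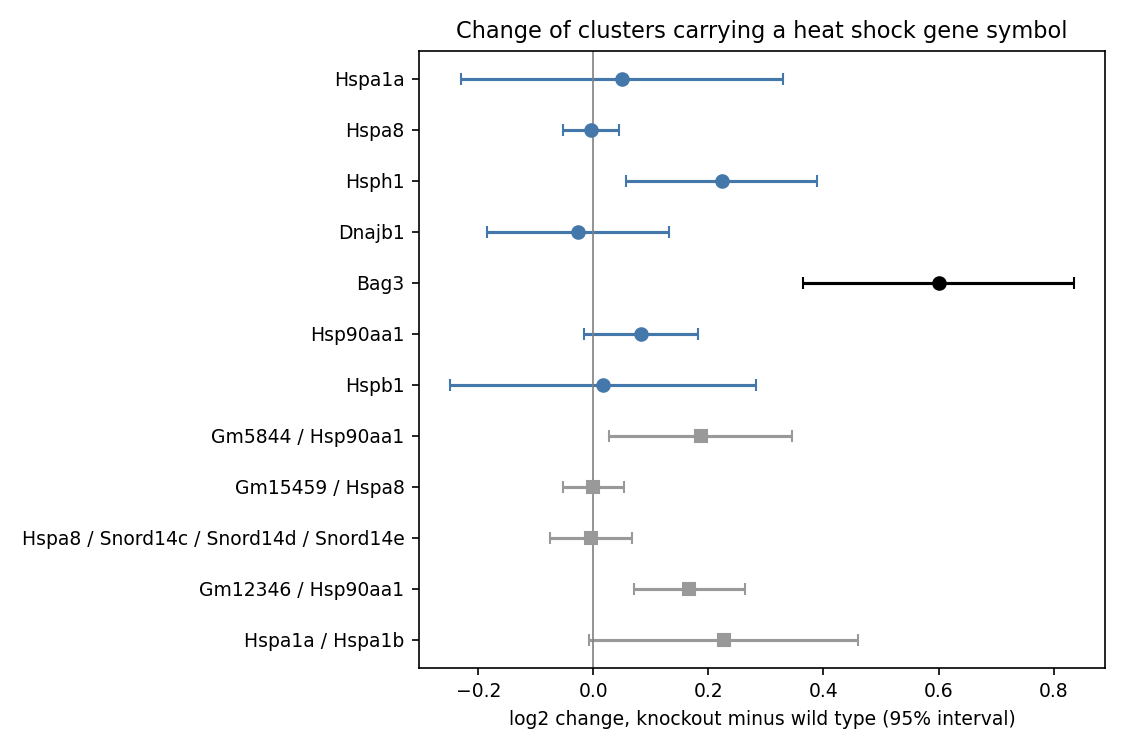
Log2 change (x axis, knockout minus wild type, with 95% intervals from the moderated fit) of the 7 genes on their own clusters (circles, black where called) and of the 5 clusters with several symbols (grey squares). Bag3 stands at 0.60 and every other estimate lies between -0.03 and 0.23.

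Of the 7 members, 1 was called higher, 0 lower, and 6 did not pass (limma, Benjamini-Hochberg adjusted p under 0.05). The 6 include Hspa8, whose values cannot show whether it changed, and its fitted change also enters the median given below. Over all tested clusters 2.96% were called higher, and over 12570 protein-coding genes 4.75%. At an unadjusted p under 0.05, 2 members were higher (Bag3 and Hsph1) and 0 lower. At that threshold 9.32% of all tested clusters were higher and 12.3% lower, and 11.3% of protein-coding genes were higher. The members' median log2 change was 0.05, against 0.003 over all tested clusters. In 2 of the 7, Bag3 and Hsph1, all knockout arrays lay above all wild-type arrays, a pattern seen in 11.6% of all tested clusters and 16% of protein-coding genes. The members were chosen with earlier results of these data known, so these shares are a description.

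Beyond these genes, the wider chaperone network was read from a list of 73 genes in 9 roles. Of these, 65 could be tested, 12 were called higher (18.5%), 2 were called lower (3.08%) and 51 did not pass. Among all protein-coding genes 4.75% were called higher and 5.98% lower. All knockout arrays lay above all wild-type arrays in 30 of the 65 (46.2%), against 16% of protein-coding genes. The median log2 change was 0.08, against -0.01 for protein-coding genes. The list was chosen with earlier results of these data known, so these contrasts describe it and are no independent test. The count of calls higher was 6 without any 1 of wild-type arrays 1, 2 and 3, and 7 after the arrays were brought to a common median. Of the 14 calls, 7 held under all 15 settings run: Hspa4, Dnajb6, Hspa5, Hsp90b1, Hyou1 and Cct2 higher, and Fkbp5 lower.

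The chaperones of the endoplasmic reticulum, where secreted proteins fold, held the highest share of calls among the 9 roles, with 3 of 5 tested. Hspa5, encoding the HSP70 of this compartment (BiP), read 14.73, 14.76 and 14.68 in wild type and 15.22, 15.25 and 15.19 in the knockout. It rose by 0.50 on the log2 scale (SE 0.04; limma adjusted p = 0.0013). Hsp90b1, encoding the HSP90 of this compartment (GRP94), rose by 0.45, from 13.05 ± 0.01 (SD, n = 3) to 13.50 ± 0.03 (SD, n = 3). Hyou1, its HSP110, rose by 0.61, from 9.95 ± 0.03 (SD, n = 3) to 10.56 ± 0.08 (SD, n = 3). For these genes the distance between the genotypes was several times the SD within either. Serpinh1, the collagen chaperone, had a log2 change of 0.05 and Sil1, an exchange factor for BiP, 0.10, and neither passed.

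Among other relatives of HSP70, 2 of 7 rose. Hspa4, another HSP110 type exchange factor, read 13.89, 13.92 and 13.85 in wild type and 14.33, 14.31 and 14.45 in the knockout, a rise of 0.48 (SE 0.05; limma adjusted p = 0.0036). Hspa13 rose by 0.33 (limma adjusted p = 0.023), a call lost whichever of the 6 arrays was left out (0.056 to 0.079). Of 11 J-domain genes 1 rose: Dnajb6, whose protein keeps aggregation-prone proteins from clumping, went from 9.93 ± 0.02 (SD, n = 3) to 10.40 ± 0.07 (SD, n = 3). Of 8 exchange factors and co-chaperones of HSP70, Stip1 (HOP, which hands proteins from HSP70 to HSP90) rose by 0.34 (limma adjusted p = 0.022, lost without any 1 wild-type array or knockout array 1, at 0.063 to 0.079). The BAG relatives of Bag3 did not pass: Bag1 had a log2 change of 0.11, Bag2 0.08, Bag4 -0.02, Bag5 0.08 and Bag6 0.01.

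The HSP90 co-chaperones moved both ways, with 1 of 12 higher and 2 lower. Fkbp4, a co-chaperone of steroid receptors, rose by 0.31, and this call was lost without any 1 wild-type array (limma adjusted p of 0.093 to 0.11), knockout array 1 (0.067) or 3 (0.053). Fkbp5, its relative and a known target of glucocorticoid receptors, read 7.44, 7.48 and 7.54 in wild type and 6.96, 7.01 and 7.06 in the knockout. Fkbp5 fell by 0.48 (SE 0.06; limma adjusted p = 0.0075). Chordc1, which encodes the HSP90 partner morgana, fell by 0.43 (limma adjusted p = 0.019), a call kept without knockout array 3 and lost in the other 5 runs that left out 1 array (0.051 to 0.076). Cdc37, which brings kinases to HSP90, had a log2 change of 0.07 and did not pass. Fkbp4 and Fkbp5 therefore differed in direction, and that difference was not tested.

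In mitochondria, 2 of 7 rose. Hspe1, the lid of the mitochondrial chaperonin, rose by 0.35 and Hspa9, the mitochondrial HSP70, by 0.27 (limma adjusted p = 0.016 and 0.013), and each lost its call without any 1 wild-type array (0.052 to 0.082 for Hspe1 and 0.055 to 0.065 for Hspa9). Hspd1, the barrel of that chaperonin, had a log2 change of 0.15 (adjusted p = 0.14). In the TRiC chaperonin, the ring that folds actin and tubulin, 2 of 7 tested subunits rose and all 7 had positive changes, from 0.04 to 0.33. Cct2 read 15.66, 15.62 and 15.67 in wild type and 16, 15.99 and 15.96 in the knockout, a rise of 0.33 (SE 0.03; limma adjusted p = 0.0030). Cct8 rose by 0.31, a call lost without any 1 wild-type array (0.096 to 0.11), knockout array 2 (0.077) or 3 (0.052). Of the 5 small heat shock proteins tested 0 were called, with Hspb6 at -0.02 and Cryaa at 0.04, and 2 others were too dim. Of the 3 heat shock factors and regulators tested 0 were called, with Hsbp1 at 0.09 and Hsf2 at -0.01, and Hsf4 and Hsf5 were too dim. At an unadjusted p under 0.05 the count in both of these roles was 0 too, in either direction.

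**Figure D4:**
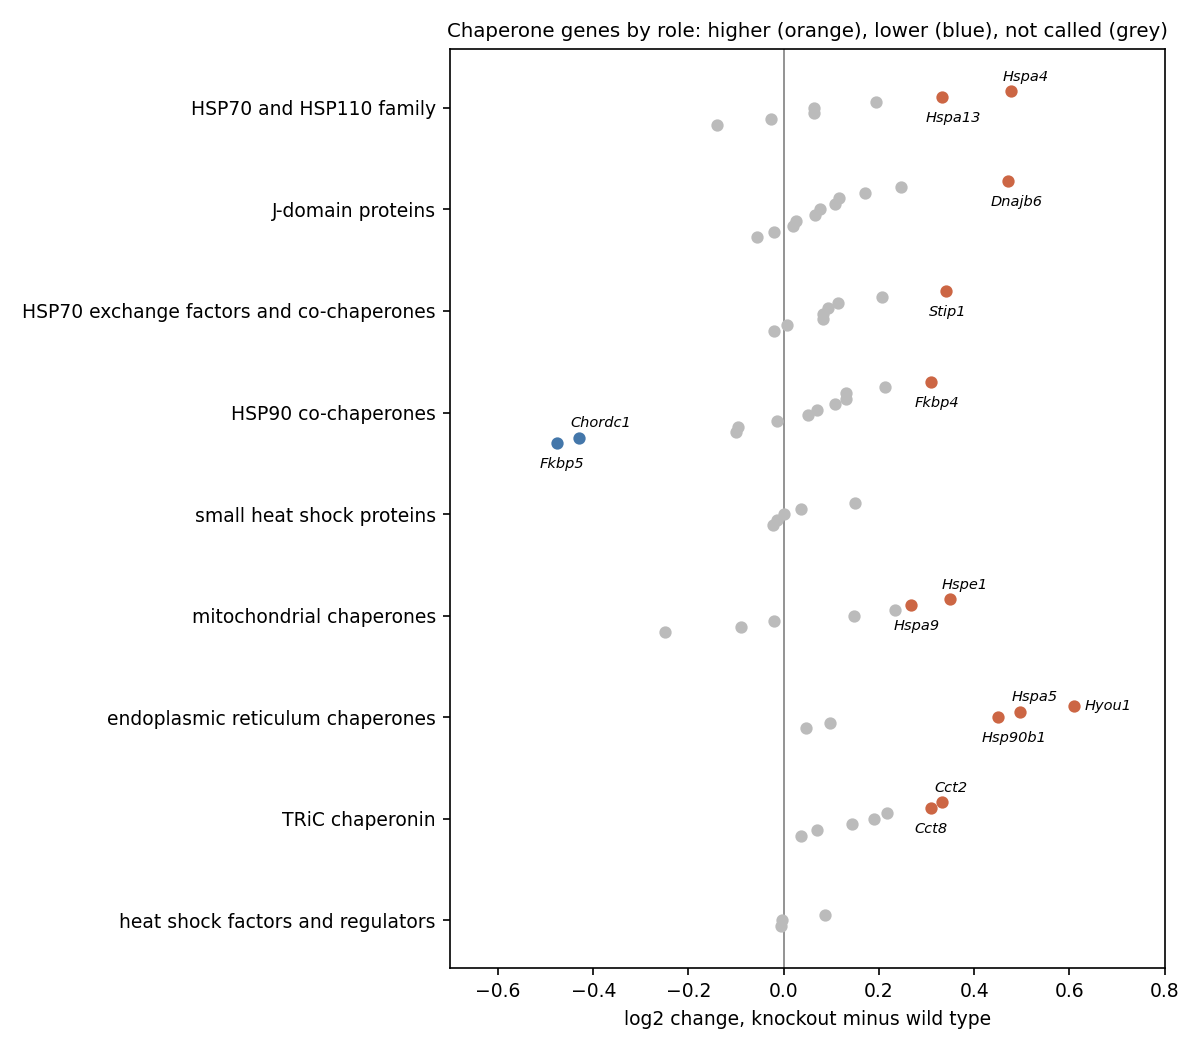
Log2 change (x axis, knockout minus wild type) of the 65 tested genes of the wider chaperone list, by role (y axis), 1 point per gene. The 12 called higher are orange and lie between 0.27 and 0.61, the 2 called lower are blue at -0.43 and -0.48, and the 51 others are grey.

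Promoter windows were matched for 60 of the 73 genes. A facing pair of GAA units was in 14 of them (23.3%), against 14.5% of 27025 genes with a window. Of the 9 genes called higher that had a window, 4 held such a pair (Cct2, Dnajb6, Fkbp4 and Hspe1) and 5 did not (Cct8, Hsp90b1, Hspa4, Hspa5 and Stip1). The 3-unit element was in 3 of the 60, those of Dnajb6, Hspd1 and Hspe1, against 0.514% of all genes with a window. Hspd1 and Hspe1 both lie on chromosome 1 and had the same counts of matches. Whether their windows overlap, so that 1 stretch is counted more than once, was not examined.

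The genes whose values followed Bag3 most closely over the 6 arrays, among 20185 clusters with 1 symbol, were Ache (Pearson r = 0.998), Atp2b1 (0.996) and Rara (0.996). Ache encodes acetylcholinesterase, Atp2b1 a calcium pump of the cell membrane and Rara a retinoic acid receptor. Ache read 5.43, 5.82 and 5.68 in wild type and 6.75, 6.34 and 6.64 in the knockout, on a cluster whose name gives no chromosome, with knockout array 2 the lowest of its group as for Bag3. With 6 points that share the genotype contrast, such values are a description of these arrays.

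Some markers of other cells and of early responses changed in the same comparison. For scale, 2.96% of all tested clusters were called higher and 4.84% lower, and 4.75% and 5.98% of protein-coding genes. Of 5 tested megakaryocyte markers 3 were called higher, with the list mean at 6.74 to 6.77 over wild-type arrays and 7.26 to 7.31 over knockout arrays. Of 10 tested immediate early genes 3 were called higher (Atf3 by 1.56, Ier3 by 0.62 and Fosb by 0.25). The median log2 change of these 10 was 0.04, with 5 positive, and Ier2 had a log2 change of -0.36 that did not pass. Dusp1, at 18.50 in wild type, is in these counts. Its range over the 6 arrays was 0.01, as flat as Hspa8, so its change is likewise given no reading. The list mean lay at 15.70 to 15.73 over wild-type arrays and at 15.87 to 15.98 over knockout arrays, with Atf3 the member that changed most. Of 7 HSC and progenitor markers 3 were called lower, Flt3, Hlf and Kit, with the list mean at 10.69 to 10.75 in wild type and 10.38 to 10.42 in the knockout. Of 5 B cell markers 2 were called lower, at log2 changes of -0.83 for Ebf1 and -0.61 for Cd79a, with the list mean at 5.59 to 5.61 and 5.22 to 5.34. Both called genes were dim, with knockout means of 4.98 and 4.96. Cd79b (-0.09), Pax5 (-0.08) and Vpreb1 (0.02) did not pass. Of 4 erythroid markers 1 was called lower (Car1, a log2 change of -1.04), with the list mean at 5.38 to 5.51 and 5.18 to 5.20. Car1 was the member that changed most, while Epor (0.05), Klf1 (-0.06) and Alas2 (0.06) did not pass. The median log2 change of the erythroid list was -0.003. Of 2 stromal and endothelial markers bright enough to test 1 was called lower (Pecam1, a log2 change of -0.53). Cxcl12, Cdh5 and Lepr of that list were too dim to test. Of 6 monocyte and macrophage markers 1 was called higher (Itgam, 0.42). Of 7 granulocyte markers 0 were called, with 1 higher and 0 lower at an unadjusted p under 0.05 by limma, and of 3 T cell markers 0 were called, with the same counts of 1 and 0. Their part in the Bag3 and chaperone values was not tested. In RNA from pooled cells, more transcript per cell and more cells of a type that holds it cannot be told apart.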

How the data were processed

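Expression was measured on 6 arrays, 3 per genotype. The deposited table holds values for 65956 transcript clusters that the authors had processed and that were taken as log2 from their range (2.04 to 19.93). The submitters' processing notes name MAS5, with no version or role. The sources used here do not give the background correction, probe summary or normalization, so every fold depends on that reading. Values near 19.93 cannot show a rise. Precision is limited by the number of arrays.

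Platform symbols, some years old, were read after removing repeats, and 30604 clusters had 1 symbol. Gene IDs were used to update symbols from RefSeq (GRCm38.p6). The dimmest 40% of clusters by mean over the 6 arrays were left out (limit 4.09), which kept 39543. Genotype was fitted as the only term with limma 3.58.1 in R 4.3.3 (empirical Bayes with an intensity trend). Two-sided p-values were adjusted after Benjamini-Hochberg across the clusters tested, and an adjusted p under 0.05 was a call. Intervals are 95% from the moderated SE, and SDs are over 3 arrays. The pipeline was tested on simulated data. Python 3.11.15, pandas 2.3.3 and matplotlib 3.10.9 made the tables and plots.

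The members and lists were chosen with earlier results of these data known. Wider genes are named where called, up to 3 per role and direction, or, where a role had 0 calls, the 2 brightest. Also named are the 3 genes most like the called members in pattern. Bag1 to Bag6, Serpinh1, Sil1, Cdc37, Hspd1, Hsf4 and Hsf5 were named after their values were seen. The alternatives tried were quantile normalization, a common median, no filter or a stricter one, no intensity trend, array weights, the replicate number as a block, the mean over a gene's clusters, and leaving out each array.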

Additional observations from a re-analysis of the deposited data

How the results depend on the processing

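Bag3 kept its direction under all settings run, and its log2 change ran from 0.57 to 0.63 over the 8 settings that kept all arrays. With the replicate number as a block the change was 0.60 and no longer passed (limma adjusted p = 0.068), so 0 members were called higher. Leaving out 1 array gave a Bag3 change of 0.545 to 0.685 and 0 or 1 members called. With 1 array left out, changes ran from 0.17 to 0.27 for Hsph1, 0.05 to 0.11 for Hsp90aa1, -0.057 to 0.11 for Hspa1a, -0.08 to 0.00 for Dnajb1, -0.10 to 0.09 for Hspb1 and -0.005 to 0.00 for Hspa8, none of them called. Dnajb1 turned to 0.0058 after quantile normalization and Hspb1 to -0.013 with a common median, and the stricter filter removed Hspb1. After quantile normalization the cluster shared by Hspa8 and 3 small nucleolar RNAs read 0.051 and Hsf2 0.027, both turned in sign and uncalled. With 1 array left out, Hspb6 ran from -0.07 to 0.04, Cryaa from -0.035 to 0.14, Hsbp1 from -0.065 to 0.22 and Hsf2 from -0.13 to 0.065. The wider list gave 7 calls higher with a common median, 6 with the replicate block and 6 to 10 with 1 array left out. Its calls lower were 1 with the block and 1 to 2 with 1 array left out.

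The labels do not say whether the replicate numbers pair the arrays. Deviations of arrays with the same number correlated at -0.14, -0.10 and 0.02 for numbers 1, 2 and 3 across genotypes. Those of arrays with different numbers correlated at -0.13 to 0.21. With 3 arrays per genotype such values cannot show whether arrays were handled in pairs. With the block, calls over all clusters went from 1172 to 630 higher and from 1914 to 1083 lower. With 1 array left out they were 542 to 971 higher and 764 to 1508 lower. Depth has no counterpart here, but Hspa8, with its brightest clusters at the ceiling, and Hspb1 near the dim limit are the members whose signal limits what can be read. The Hspa8 cluster at the gene's own chromosome lay under the ceiling, at 15.95, and was as flat as the brightest.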
